A study of Mus musculus with 3 samples.

Results

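Chemokines, their receptors and the core inflammatory cytokines were followed in mouse ovaries after chemotherapy and stem cell transfer. Members were all genes whose name on the array began with Ccl, Cxcl, Ccr or Cxcr and a digit, the 6 cytokine genes Il1a, Il1b, Il1rn, Il6, Il18 and Tnf, and array names that are older synonyms of such genes. This gave 53 genes, read by 63 probes, of 19459 named genes on the array. Of these, 4 entered through a synonym alone (Cxcl3, Cxcr1, Cxcr2 and Cxcr5), and Pf4 and Ackr3 stood on the array under the names Cxcl4 and Cxcr7. The label fits the data in that the 4 genes taken to mark the group, Cxcl9, Ccl8, Ccl5 and Ccl21b, each gave a signal above background in the treated ovaries of every array.

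All animals were C57BL/6 mice. Untreated mice are called WT. Mice given Cyclophosphamide, an alkylating drug that damages growing follicles and serves to model premature ovarian failure, form the POF group. The other 2 groups were POF mice that received adipose-derived stem cells (ADSC), mesenchymal cells cultured from fat, either intravenously (ADSC-iv) or by injection into both ovaries (ADSC-ovary). Thus all 3 treated groups carried the drug, and no group received cells or an injection without it. Ovaries were taken 1 week after treatment. The labels give no age, drug dose or number of animals per array, nor the strain or sex of the cell donors.

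Each of 3 arrays carried RNA of 1 treated group in Cy5 (red) and WT RNA in Cy3 (green), with no exchange of dyes. With 1 array per group, no difference below has a replicate check, no test could be run and no p-value is printed. Precision is limited by this small number of arrays. The only repeated measurement is the WT channel, and whether that RNA came from 1 pool is not stated, so its spread may be technical or between animals. Between pairs of arrays its normalized signal differed with an SD of 0.23 to 0.25 log2 units over 7909 to 8283 genes, and the treated channel with an SD of 0.37 to 0.40. Signals above background were found in 39.9% to 43.4% of gene probes and in 0 of the blank spots of any array. Ovarian marker genes were above background in 7 of 8 cases in all channels, the exception being Amh. In whole ovaries, more cells of a type and more RNA per cell cannot be told apart.

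Chemokines are small secreted proteins that draw leukocytes along a gradient by binding receptors with 7 membrane-spanning helices. The CC and CXC families are named for the spacing of their first cysteines. Some are made only on stimulation, by interferon gamma, tumour necrosis factor or interleukin 1, and others are made constantly and hold lymphocytes, dendritic cells or stem cells in place. In the ovary, resident macrophages and invading leukocytes take part in ovulation, in the regression of the corpus luteum and in the removal of degenerating follicles.

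Promoter sequences are shown because members that shift together invite a look at their start sites. Cxcl9 and Ccl8 are the ligands with the largest log2 differences between ADSC-ovary and POF among members measured on both arrays. The probe named Ccl21b, like that of Ccl21c, was low after the drug alone. It may read other, nearly identical Ccl21 genes, so the Ccl21b start site need not be that of the RNA measured. Each sequence covers 250 bases before to 50 after the gene's start in RefSeq (mouse build GRCm38.p6), read along the gene's strand. Capitals mark the TATA box letters TATAAA, searched on both strands. Cxcl9 lies on the minus strand (chr5:92328030-92328329), Ccl8 on the plus strand (chr11:82114935-82115234) and Ccl21b on the plus strand (chr4:42172870-42173169).
Cxcl9: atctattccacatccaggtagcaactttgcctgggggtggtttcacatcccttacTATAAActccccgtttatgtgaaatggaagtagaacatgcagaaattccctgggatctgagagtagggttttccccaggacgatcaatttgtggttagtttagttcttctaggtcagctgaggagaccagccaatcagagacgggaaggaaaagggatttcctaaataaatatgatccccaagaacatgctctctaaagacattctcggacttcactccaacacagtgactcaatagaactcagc
Ccl8: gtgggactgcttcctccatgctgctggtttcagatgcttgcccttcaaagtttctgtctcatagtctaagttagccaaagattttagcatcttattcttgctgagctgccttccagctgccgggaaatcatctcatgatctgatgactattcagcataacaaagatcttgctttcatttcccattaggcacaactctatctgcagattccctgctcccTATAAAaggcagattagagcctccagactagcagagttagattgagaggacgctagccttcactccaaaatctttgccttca
Ccl21b: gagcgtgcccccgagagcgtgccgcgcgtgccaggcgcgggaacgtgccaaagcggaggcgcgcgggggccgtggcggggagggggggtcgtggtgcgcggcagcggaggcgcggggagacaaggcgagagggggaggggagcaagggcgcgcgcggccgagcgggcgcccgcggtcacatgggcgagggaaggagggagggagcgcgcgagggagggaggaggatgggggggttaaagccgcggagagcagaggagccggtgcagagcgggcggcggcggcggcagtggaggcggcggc

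The TATAAA letters began 195 bases before the start in Cxcl9 and 32 bases before it in Ccl8, and were not in the Ccl21b window. They occurred in 13.6% of all 32851 promoter windows and in 37.2% of the 43 windows of the 39 members that matched the table. The GC content was 44.3% for Cxcl9, 44.7% for Ccl8 and 78.7% for Ccl21b, against a median of 52.7% over all windows. Whether these letters act as a TATA box was not tested. Other patterns searched were the interferon gamma activated site (TTCNNNGAA, in 8.3% of all windows) and the interferon-stimulated response element (in 3.44%). A further pattern was the NF-kB consensus (in 8.46%). No exact match to any of these 3 patterns was in the Cxcl9, Ccl8 or Ccl21b window. Exact matches were found in 4, 2 and 7 of the member windows, on either strand and with no overlap removed. Sites that depart from the searched letters are missed. The search therefore cannot show that Cxcl9, Ccl8 or Ccl21b lacks interferon gamma or NF-kB sites.

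Of the 53 members, 31 were above background in 1 or more of the 6 channels (3 treated, 3 WT), and 15 in all 6. Above background means here that the spot's median lay over 2 SDs of the surrounding background beyond that background's own median. The treated channel showed 24 members in POF, 26 in ADSC-iv and 29 in ADSC-ovary ovaries, and the WT channel showed 17, 17 and 19 on the same arrays. As a share of members this was 45.3%, 49.1% and 54.7% of the treated channels, beside 48.0%, 51.3% and 50.1% of all named genes. In WT the share was 32.1%, 32.1% and 35.8% of members, beside 42.7%, 46.3% and 44.7% of all genes.

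No channel of any array showed the other 22 members above background. They were the ligands Ccl1, Ccl4, Ccl22, Ccl24, Cxcl3, Cxcl5 and Cxcl15, the receptors Ccr1l1, Ccr3, Ccr6, Ccr7, Ccr8, Ccr9, Ccr10, Cxcr1, Cxcr2, Cxcr3, Cxcr5 and Cxcr6, and the cytokines Il1a, Il6 and Tnf. A spot below background says that the signal was not detectable on this array, not that the transcript was absent. A member's log2 ratio is given only where at least 1 channel of each array used was above background, and for genes with several probes the ratio averages all of them, dim ones included.

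Against WT, the median log2 ratio of measured members was 0.41 in POF (24 members, range -1.26 to 1.68), 0.50 in ADSC-iv (26 members, -0.23 to 2.30) and 1.10 in ADSC-ovary (29 members, -0.42 to 4.54). The medians of all measured genes were 0.01, 0.004 and 0.002. In POF, 2 members (Cxcl9 and Ccr2) were at least 2-fold higher than WT, where 1.16% of all 9486 measured genes were, and 2 (Ccl21b and Ccl21c) were at least 2-fold lower, where 0.928% of all genes were. In ADSC-iv, 8 members were at least 2-fold higher (2.0% of all genes) and 0 were lower (0.551%). In ADSC-ovary, 15 of the 29 were at least 2-fold higher (2.68% of all genes) and 0 lower (0.352%).

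Where WT was at background, a member could be measured only through its treated signal, which favours ratios above 0, so these medians and counts are a description and no support. Among members above background in WT, a choice that does not look at the treated channel, the median was 0.23 in POF (17 members), 0.46 in ADSC-iv (17) and 0.60 in ADSC-ovary (19). There 1, 5 and 8 of them were at least 2-fold higher, beside 0.842%, 1.68% and 1.91% of all genes above background in WT. For ADSC-ovary these included Ccl2, Ccl5, Ccl8, Ccl9, Ccr2, Cxcl9 and Il18.

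Direct differences between treated arrays have the treated RNA in the same dye, so a dye effect of a gene cancels. ADSC-ovary against POF had 8 of 23 members at least 2-fold higher (0.65% of all 9077 genes), namely Cxcl9, Ccl8, Ccl5, Ccl2, Ccl12, Il1b, Ccl3 and Ccl21b, and 0 lower (0.154%). The median difference was 0.76. ADSC-iv against POF had 3 of 23 higher (0.513%), Ccl8, Ccl21b and Ccl21c, and 0 lower (0.349%), with a median of 0.32. Between the transfer routes, ADSC-ovary exceeded ADSC-iv by at least 2-fold in 8 of 25 members (0.634%), Cxcl11, Cxcl9, Ccl2, Ccl5, Ccl8, Ccl12, Ccl3 and Il1b, and was lower in 0 (0.328%), with a median of 0.38. Members with WT at background again entered through treated signal alone, so these counts are a description and no support. Among members above background in WT on both arrays, 4 of 17 were at least 2-fold higher in ADSC-ovary than in POF (Ccl2, Ccl21b, Ccl5 and Ccl8). For ADSC-iv against POF it was 3 of 15, and for ADSC-ovary against ADSC-iv 4 of 16. Of all such genes, 0.458%, 0.526% and 0.496% were. The 3 comparisons share arrays and are not independent of each other.

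Over the 23 members measured on all arrays, the ratio to WT was highest in ADSC-ovary for 18, in ADSC-iv for 4 and in POF for 1. Of all 8946 genes measured on all arrays, 32.2% were highest in ADSC-ovary. The members that were not were Ccl21b, Ccl21c, Ccl25, Cxcr4 and Pf4. Some leads of ADSC-ovary over ADSC-iv were small, such as 0.01 for Ccl9, 0.06 for Cxcl16 and 0.08 for Cxcl14. For Ccl9, Ccl19 and Ccr4 this order was reversed under some alternative processing. On the only Ccr4 probe above background, ADSC-iv had the highest ratio. The POF array held the lowest ratio for 18 of the 23, and for 35.3% of those 8946 genes.

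**Figure D1:**
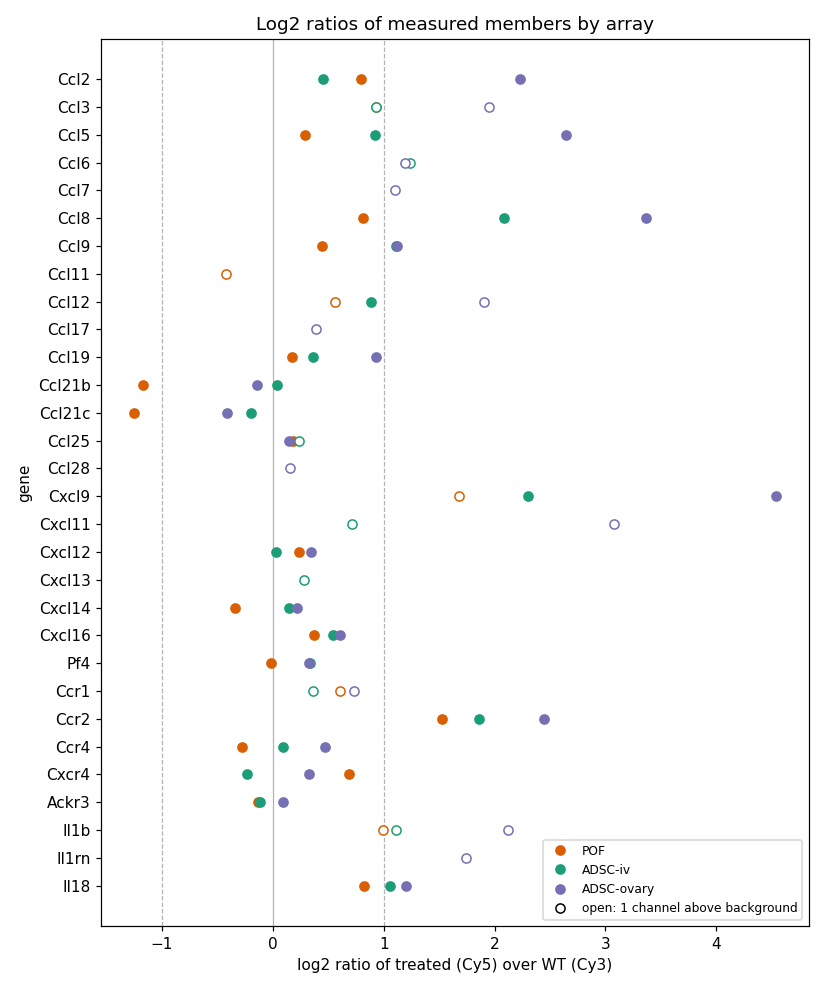
Log2 ratio of treated (Cy5) over WT (Cy3) signal for the members reported here that were measured on at least 1 array, with 1 point per array and dashed lines at 2-fold. Filled points have both channels above background and open points only 1; the ADSC-ovary points of Cxcl9 (4.54), Ccl8 (3.37), Cxcl11 (3.08) and Ccl5 (2.65) lie farthest to the right, and the POF points of Ccl21b and Ccl21c lie left of the lower line.

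Among CXC ligands, the pair that interferon gamma induces and that attracts activated T and NK cells through the receptor Cxcr3 gave the largest values. Cxcl9 had a background-subtracted Cy5 intensity of 984 in POF, 1478 in ADSC-iv and 11423 in ADSC-ovary ovaries, beside WT intensities of 167, 193 and 331 on the same arrays. The injected ovaries stood far above both other treated groups, and every treated value exceeded every WT value. Its log2 ratios were 1.68, 2.30 and 4.54. On the POF array the WT spot stayed within background, and Cxcl9 was there at least 3.21-fold higher than WT. This bound, like those below, sets the brighter group's normalized signal against the higher of the dim spot's own signal and the lowest signal among spots above background in that channel. The difference between ADSC-ovary and POF was 2.86, between ADSC-ovary and ADSC-iv 2.24 and between ADSC-iv and POF 0.62.

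Cxcl11 encodes another Cxcr3 ligand, and C57BL/6 mice are known to carry a frameshift in it, so that its RNA is made without the full protein. Its Cy5 intensity was 12.5 in POF, 47 in ADSC-iv and 799 in ADSC-ovary, with WT at 8, -28 and -38. Only the ADSC-iv and ADSC-ovary spots were above background, and the first of them barely so. The injected ovaries were at least 3.79-fold above WT and at least 6.46-fold above POF. The log2 ratio in ADSC-ovary was 3.08 and the difference to ADSC-iv 2.36. In ADSC-iv the ratio was 0.72, which turned negative with plain background subtraction and in the authors' deposited table. Their receptor Cxcr3 was below background in all 6 channels.

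**Figure D2:**
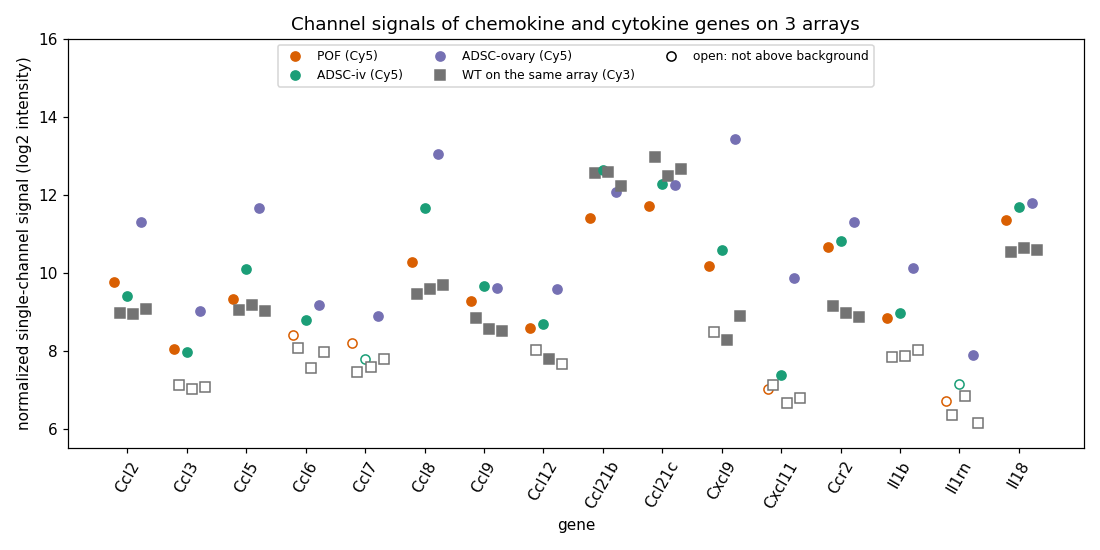
Normalized log2 signal of the members reported here that were named by size or as core cytokines and were above background at least once, with Cy5 signals of the 3 treated groups as circles and the WT signal of the same array as squares. Open symbols are not above background; the ADSC-ovary circles of Cxcl9, Ccl8, Ccl5 and Ccl2 stand apart from the other 5 symbols of each gene, whereas the POF circles of Ccl21b and Ccl21c are the lowest of theirs.

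Monocyte chemoattractants are the CC ligands made on stimulation that act mainly on Ccr2 (in the mouse Ccl8 also acts on Ccr8). Ccl8, Ccl2 and Ccl12 were highest after ovarian injection, and Ccl7 was above background there alone. ADSC-iv lay above POF for Ccl8 but not for Ccl2. For Ccl12 the ratios of ADSC-iv and POF differed by 0.32, but the Cy5 signals by only 0.10. The WT signals differed by -0.22, with WT below background on the POF array, so no rise over POF is shown. For Ccl7 no direction between ADSC-iv and POF can be given. Ccl8 had Cy5 intensities of 1114 in POF, 3342 in ADSC-iv and 8648 in ADSC-ovary, with WT at 468, 673 and 668. All 6 channels were above background, and the 3 treated values did not overlap those of WT. Log2 ratios were 0.82, 2.09 and 3.37. Ccl8 was the measured member with the largest difference between ADSC-iv and POF (1.27), and it differed by 2.55 between ADSC-ovary and POF.

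Ccl2, the main ligand of Ccr2, which releases monocytes from bone marrow, differed by route. Its Cy5 intensity was 719 in POF, 601 in ADSC-iv and 2360 in ADSC-ovary, with WT at 289, 398 and 405. ADSC-iv did not exceed POF, with a difference of -0.34, whereas ADSC-ovary exceeded POF by 1.43 and ADSC-iv by 1.77. The ratios to WT were 0.80, 0.46 and 2.23.

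Ccl12, a mouse relative of Ccl2, was read by 2 probes of the same direction, and their mean Cy5 intensity was 264 in POF, 336 in ADSC-iv and 777 in ADSC-ovary against WT at 96, 105 and 85.3. Its ratios were 0.56, 0.88 and 1.91. WT was above background only on the ADSC-iv array, so the ADSC-ovary value is a bound of at least 3.09-fold. Ccl7 was above background in ADSC-ovary alone (357.5, beside 160 in POF and 117 in ADSC-iv), at least 1.92-fold above WT.

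The other inducible CC ligands comprised those that were high mainly after ovarian injection and those that were alike by both routes. Ccl5, made by activated T and NK cells and by macrophages, had a Cy5 intensity of 513 in POF, 1031 in ADSC-iv and 3289 in ADSC-ovary, with WT at 324, 481 and 397. Its 2 probes gave ratios of 0.39 and 0.19 in POF, 0.92 and 0.93 in ADSC-iv, and 2.49 and 2.81 in ADSC-ovary. The injected ovaries thus stood apart on both probes, with a mean difference of 2.36 to POF and 1.72 to ADSC-iv. Ccl3, made by macrophages, had 128, 136 and 403 in the treated groups and between -9 and 1 in WT. Its ratios were 0.93, 0.93 and 1.95. With WT below background on every array, the bounds over WT were at least 1.01-fold in POF, 1.18-fold in ADSC-iv and 2.12-fold in ADSC-ovary.

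Ccl6 and Ccl9 are myeloid ligands of Ccr1 found in rodents. Ccl9 had Cy5 intensities of 489, 754 and 662 in POF, ADSC-iv and ADSC-ovary, with WT between 241 and 271. Its ratios of 0.45, 1.11 and 1.12 placed both cell-treated groups together, with a difference of 0.01 between them. Ccl6 had 211, 342 and 453 with ratios of 1.23 in ADSC-iv and 1.19 in ADSC-ovary, was below background in WT and in POF, and was at least 2.10-fold (ADSC-iv) and 2.28-fold (ADSC-ovary) above WT. The remaining inducible CC ligands were Ccl11, an eosinophil attractant seen above background in POF alone (-0.42), and Ccl17, a Ccr4 ligand seen in ADSC-ovary alone (0.39).

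Ligands that are made constantly behaved otherwise. Ccl21 holds T cells and dendritic cells in lymphoid tissue through Ccr7 and is made by lymphatic vessels. The mouse genome has several nearly identical Ccl21 genes, so the probes named Ccl21b and Ccl21c cannot be assigned to 1 copy. The Ccl21b probe had a Cy5 intensity of 2656 in POF, 7152 in ADSC-iv and 4594 in ADSC-ovary, with WT at 4748, 6067 and 4493. POF was the lowest of the 6 values, and the other groups lay in or above the WT range. The Ccl21c probe gave 3416, 5501 and 5319 against 6340, 5598 and 6067 in WT, and again POF was the lowest.

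Ratios to WT were -1.17 (POF), 0.03 (ADSC-iv) and -0.15 (ADSC-ovary) for the Ccl21b probe, and -1.26, -0.19 and -0.42 for the Ccl21c probe. Under median centring, which moved the median of all genes on the POF array by 0.32, the POF values were -0.66 and -0.71, and both ADSC-ovary values and the ADSC-iv value of the Ccl21c probe turned positive. The differences to POF were 1.20 and 1.06 in ADSC-iv and 1.02 and 0.84 in ADSC-ovary. For Ccl21c in ADSC-iv the Cy5 signals differed by 0.55 and the WT signals by -0.51, so that much of that difference lay in the WT channel. In the Cy5 channel alone, Ccl21b in ADSC-ovary exceeded POF by 0.68, also short of 2-fold. The lymphatic marker Lyve1 had ratios of -0.68, -0.31 and -0.04 on the same arrays. It was the only one of 4 lymphatic markers above background throughout, with Pdpn seen in ADSC-ovary alone and Prox1 and Flt4 in no channel. The summed Cy5 intensity of the 4 was 399, 403 and 620.5, against 393.5 to 513.5 in WT. Their part in the Ccl21 values was not tested.

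Ccl19, the other Ccr7 ligand, was read by 2 probes that disagreed. The bright probe had Cy5 intensities of 848, 1108 and 2100 against WT at 475, 564 and 493, and ratios of 0.46, 0.83 and 1.86. Its companion was below background in all channels. Averaged over both, the ratios were 0.17, 0.36 and 0.93. Ccl25, a gut ligand of Ccr9, stayed between 0.14 and 0.23 on all arrays, and Ccl28, an epithelial ligand of Ccr10, was seen in ADSC-ovary alone (0.16).

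Constitutive CXC ligands differed little from WT. Cxcl12, which retains stem cells and guides germ cells through Cxcr4, had ratios of 0.23 (POF), 0.02 (ADSC-iv) and 0.35 (ADSC-ovary). Cxcl16, a membrane-bound ligand of Cxcr6, had 0.37, 0.54 and 0.60, and Pf4, the platelet chemokine, -0.02, 0.34 and 0.33. Cxcl14 was at -0.34, 0.14 and 0.22, again with 1 bright probe and 1 below background. Cxcl13, the B cell attractant, was above background in ADSC-iv alone (260, ratio 0.28). None of these 5 genes reached 2-fold in any of the 6 comparisons.

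Chemokine receptors mark the cells that respond, and 6 of 18 were measured on each array. Ccr2, carried by inflammatory monocytes, had Cy5 intensities of 1483 in POF, 1779 in ADSC-iv and 2375 in ADSC-ovary, with WT at 344, 392 and 332. Every treated value was several times above every WT value. Its ratios of 1.52, 1.86 and 2.44 made it the only member above background in WT that was at least 2-fold higher in POF. The 3 treated groups lay closer together for Ccr2 than for Cxcl9 or Ccl8, since ADSC-ovary differed from POF by 0.92.

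Ccr1, a receptor of Ccl3, Ccl5, Ccl6 and Ccl9 on myeloid cells, was read by 1 probe above background in the treated groups, with ratios of 1.11, 0.90 and 1.54. Another probe was below background in all channels. WT was below background on both probes of every array. Averaged over both, Ccr1 was at least 1.125-fold (ADSC-iv) and 1.157-fold (ADSC-ovary) above WT, and POF gave no bound above 1. The mean in POF turned negative in the authors' deposited table.

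Cxcr4, the receptor of Cxcl12, was the only one of the 23 members measured on all arrays whose ratio was highest in POF. Its mean Cy5 intensity was 913 in POF, 481 in ADSC-iv and 684 in ADSC-ovary, with WT at 440, 586 and 540. Its ratios were highest in POF, with values of 0.68, -0.23 and 0.33, and both probes kept that order (0.40 and 0.97 in POF, -0.31 and -0.15 in ADSC-iv, 0.27 and 0.39 in ADSC-ovary). The difference of -0.91 between ADSC-iv and POF was the lowest among members and lay in the Cy5 channel (-0.94, beside -0.03 in WT). Over the alternatives tried it ranged from -1.32 to -0.71, past 2-fold in 3 of 8 settings. Ackr3, a scavenger of Cxcl12, stayed between -0.13 and 0.09, and each of these values changed sign under 1 alternative, median centring for POF, the authors' deposited table for ADSC-iv and plain background subtraction for ADSC-ovary.

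Ccr4 was read by a bright probe (ratios 0.05, 1.02 and 0.79) and by a probe below background in all channels, so that the mean of -0.28, 0.09 and 0.47 stands for neither, and its POF value turned positive under 5 alternatives, median centring among them. On the bright probe Cy5 intensities were 3755, 10082 and 13499, with WT at 2819, 4249 and 6077. Cxcr3 (receptor of Cxcl9 and Cxcl11), Ccr7 (of Ccl19 and Ccl21) and Ccr8 (of Ccl8) were not detectable in any channel.

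Of the core cytokines, 2 were measured on all arrays. Il1b, the fever cytokine of activated myeloid cells, had Cy5 intensities of 317 in POF, 408 in ADSC-iv and 975 in ADSC-ovary, while WT stayed below background at 65, 110 and 120. Its ratios were 0.996, 1.11 and 2.12, and the bounds over WT were at least 1.75-fold, 2.16-fold and 4.35-fold. The injected ovaries exceeded POF by 1.13 and ADSC-iv by 1.01. Il18, which with interleukin 12 drives interferon gamma production, had 2493, 3456 and 3567 against WT at 1089, 1538 and 1428. Its ratios of 0.82, 1.05 and 1.20 were similar in all treated groups, and ADSC-iv and ADSC-ovary differed by 0.14.

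Il1rn, the natural antagonist of the interleukin 1 receptor, was above background in the injected ovaries alone (113, beside 12 in POF and 26.5 in ADSC-iv). Its ratio of 1.75 against a WT spot below background gave no bound above 1, because the Cy5 signal did not exceed the lowest signal among WT spots above background. Il1a, Il6 and Tnf had Cy5 intensities of at most 30, 56 and 42, all below background, so no direction can be given for them.

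**Figure D3:**
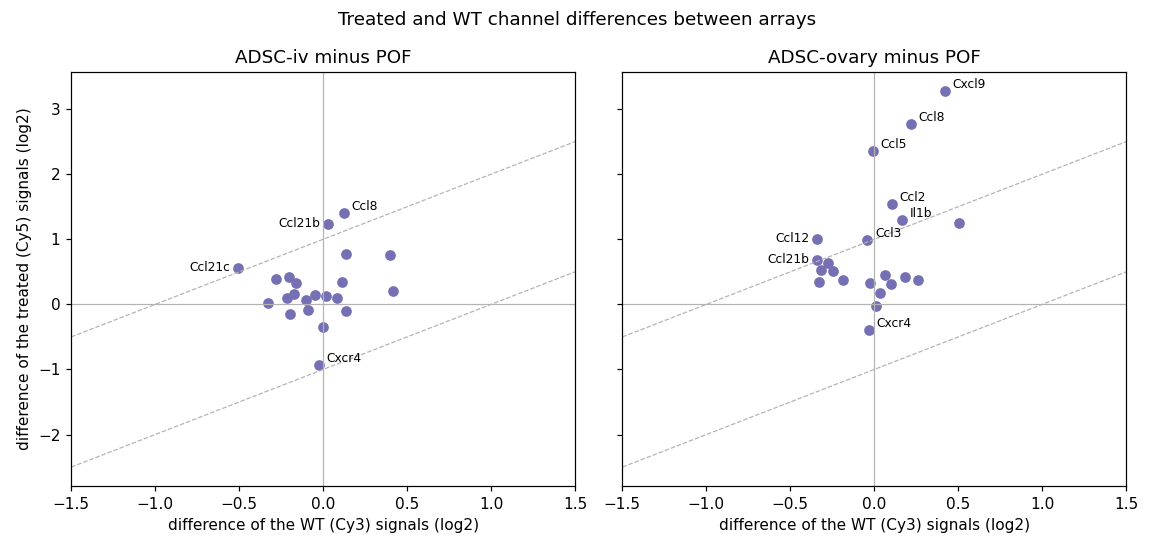
Difference of normalized Cy5 signals (vertical) against the difference of WT signals (horizontal), in log2 units, for the measured members reported here in ADSC-iv minus POF (left) and ADSC-ovary minus POF (right). Dashed lines mark a 2-fold difference of ratios, and genes at or past them and Cxcr4 are named; on the right Cxcl9 (3.28 in Cy5, 0.42 in WT), Ccl8 (2.77, 0.22) and Ccl5 (2.35, -0.01) lie high above the upper line with small WT differences, and on the left Ccl21c reaches the line through both channels.

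Partners of these genes were described with a list of 25 further receptors, decoys, inhibitors and signalling genes on the array. Of the 13 measured in ADSC-ovary, 3 were at least 2-fold above WT and 0 below, with a median of -0.02, beside 2.68% of all measured genes at least 2-fold higher. They were Il18bp, the soluble inhibitor of interleukin 18 (2.16), Casp1, the protease that releases mature interleukin 1 beta and 18 (2.10), and the T cell chemokine Xcl1 (1.14). Casp1 was also high in POF (1.19, the only partner past 2-fold of 11) and, with Il18bp (1.12), in ADSC-iv (1.22, 2 of 11). WT was not above background for Il18bp and Xcl1, which were measured only through their treated signal. The tumour necrosis factor receptor Tnfrsf1a took the opposite order with 0.23, -0.43 and -0.70, while the interleukin 1 receptor Il1r1 was below background throughout. Socs3 (-0.61, -0.68 and -0.24) and the NF-kB inhibitor Nfkbia (-0.17, -0.13 and -0.17) did not reach 2-fold on any array.

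In a list of 11 genes of the interferon gamma axis, 3 of 10 measured were at least 2-fold higher than WT in POF, 2 of 10 in ADSC-iv and 5 of 11 in ADSC-ovary, and 0 were lower. Of all measured genes, 1.16%, 2.0% and 2.68% were at least 2-fold higher. Ifng itself was above background in the injected ovaries alone, with a Cy5 intensity of 420 beside 14 in POF, 15.5 in ADSC-iv and at most 40.5 in WT, so that it was measured only where it was high. The guanylate-binding protein Gbp2, an interferon gamma target, had ratios of 1.14, 1.28 and 2.64, Gbp3 1.59, 1.81 and 2.48, and the transcription factor Irf1 1.003, 0.95 and 1.57. The receptor chains Ifngr1 (0.14, -0.30 and -0.09) and Ifngr2 (-0.42, -0.44 and -0.41) did not follow that order. Between ADSC-ovary and POF, only Gbp2 (1.51) of the 10 measured passed 2-fold.

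For markers of several leukocyte types, the median ratio of the measured genes to WT was positive in every treated group. Each median ratio covers the genes measured on that array, so the medians of different arrays cover different genes and give no order of the groups. The median log2 ratio of measured pan-leukocyte genes was 1.10 in POF, 0.61 in ADSC-iv and 1.06 in ADSC-ovary. It was 0.42, 1.32 and 1.48 for macrophage genes, 1.77, 0.90 and 1.91 for neutrophil genes and 0.39, 1.02 and 0.56 for T and NK cell genes. Differences between arrays use genes measured on both. For ADSC-iv against POF, their median was -0.08 (neutrophil), -0.04 (pan-leukocyte), 0.16 (macrophage) and 0.34 (T and NK cell). For ADSC-ovary against ADSC-iv, it was 0.86, 0.46, 0.27 and 0.24 in the same order. Sums of intensities are not normalized between the dyes. For the 8 ovary genes, for example, the POF array gave 106413 in Cy5 and 72131 in WT at a median normalized ratio of 0.002. The summed Cy5 intensity of 6 pan-leukocyte genes was 7235 in POF, 8240 in ADSC-iv and 11072 in ADSC-ovary, against 2515 to 2704 in WT. Of the 5, 6 and 6 measured, 3, 2 and 4 were at least 2-fold higher than WT, beside 1.16%, 2.0% and 2.68% of all measured genes. WT was below background for Cd53, Laptm5 and Ptprc, which could be measured only through their treated signal. It was also below background for all 7 neutrophil genes, Gzma and Cd8a on every array. On the POF and ADSC-ovary arrays this held for Gzmb, Klrd1 and Fcgr1 too. Medians and counts that include such genes are a description and no support. Lck and Nkg7, above background in WT on every array, had ratios between -0.06 and 0.37. For 9 macrophage genes the sum was 25557, 36320 and 44303 against 9588 to 10266. Most of it came from Aif1 (14783, 15987 and 21793.5) and Lyz2 (6889, 15968 and 16862). Of the 8, 7 and 7 macrophage genes measured, 2, 4 and 4 were at least 2-fold higher than WT, beside the shares of all genes just given. Csf1r, not among them, had ratios of 0.28, 0.24 and 0.46. For 7 neutrophil genes the sum was 4992, 3621 and 7772 against 381 to 416. For 10 T and NK cell genes it was 2881, 3830 and 4333 against 1752 to 2016. Above background in the treated channels were 5, 6 and 6 of the leukocyte genes, 8, 7 and 7 of the macrophage, 5, 6 and 5 of the neutrophil and 6, 6 and 8 of the T and NK cell genes. The 5 B cell genes summed to 626, 613 and 692 against 467 to 598, with Cd79b giving most of the Cy5 sums (502, 512.5 and 594). The 2 measured had opposite signs, Cd79b with ratios of 0.54, 0.63 and 0.79 and Jchain with -1.64, -1.83 and -1.68. Their medians were -0.55, -0.60 and -0.44. Jchain was above background in WT on every array and in no treated channel. The T cell genes Cd3e and Cd4, the B cell genes Cd79a and Ms4a1 and the neutrophil gene Ly6g were below background in all channels. Erythroid sums were 45519, 33552 and 51253 against 8801 to 16404 in WT. Oviduct sums were 5516 in POF, nearly all from Ovgp1 (4434), and 1055 and 1143 in the other groups, against 353 to 910 in WT. Fat cell genes summed to 1750, 1360 and 2717 against 1148 to 1264, with normalized medians of -0.03, 0.09 and 1.49 over the 2, 2 and 3 genes measured. The part of these cells in the chemokine values was not tested.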

How the data were processed

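RNA of whole ovaries was measured on 3 2-colour spotted arrays, 1 per treated group, against WT RNA. For each spot and colour, the authors' deposited scanner tables give, per the file headers, a median foreground intensity with the surrounding background's median and SD, not yet subtracted. LuxScan 3.0 read the images, per the series' design text. The authors' deposited processed values are log2 ratios; set against the log2 of the background-subtracted ratios of bright spots they gave r of 0.966, 0.955 and 0.943, which settles the scale and direction (treated over WT), and their medians were 0.04, 0.008 and 0.02. How they were normalized is not given in the sources used here.

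Background was corrected by normexp with an offset of 50, and the log2 ratios of an array were then loess-normalized with the 1776 control spots at weight 0 (limma 3.58.1, R 4.3.3), which was tested on simulated data. Single channels were scaled between arrays by Aquantile. Probes of a gene were averaged, after array names had been updated through RefSeq symbols and synonyms (assembly GRCm38.p6, names only). Of 31920 gene probes, the 24392 with a name were used. Spots flagged -100 were kept. Tables and figures were made with Python 3.11.15, pandas 2.3.3 and matplotlib 3.10.9. Groups followed the labels. Genes named are members at least 2-fold from 0 in any of the 6 comparisons, the 4 marker genes, the 6 cytokines, and others by role. A value was said to have moved under an alternative when it shifted by more than 0.25 log2 units, the largest SD of the WT channel between arrays. The members and lists were chosen with earlier results of these data known. Alternatives were median centring (which moves the median of all measured genes by 0.32, 0.17 and 0.11 against WT), plain background subtraction, no filter or a stricter one of 3 background SDs, only spots flagged 100, the Cy5 channel alone, only probes above background, and the authors' deposited log2 ratios. Values of some genes are not reported here, although the counts and medians include them.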

Additional observations from a re-analysis of the deposited data

How the results depend on the processing

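No paired analysis was possible because each group had 1 array. All 46 member values past 2-fold kept their sign under every alternative in which they were measured, and 38 stayed past 2-fold. For a gene with 1 probe, the alternatives that change only the filter or the spots kept reuse the same ratio and could not alter it. Only median centring, plain background subtraction, the authors' deposited table and the Cy5 channel alone could. With only spots flagged 100, 28 of these values had not moved, 1 had, and the rest were not measured. Of all 150 measured member values, 26 changed sign under some alternative. In POF against WT, the 2 members at least 2-fold higher became 7 under median centring, 5 with plain background subtraction (floor of 50) and 6 in the authors' deposited table, and the 2 lower became 0 under median centring. In ADSC-iv against WT, the median of 0.50 became 0.23 without the filter on dim genes, 0.83 with only spots flagged 100, 0.77 in the authors' deposited table and 0.87 with only probes above background, an alternative chosen after seeing the data, and the 8 higher members became 5 with only spots flagged 100. In ADSC-ovary against WT, the median of 1.10 became 0.35 without the filter and 1.37 with only spots flagged 100. For ADSC-iv against POF, the 3 higher members became 5 in the authors' deposited table, and the 0 lower members became 1 there, under median centring and with plain subtraction. For ADSC-ovary against POF, the median of 0.76 became 0.39 and the 0 lower members 1 without the filter. For ADSC-ovary against ADSC-iv, the 8 higher members became 3 with only spots flagged 100, and the 0 lower 1 in the authors' deposited table. Fewer members were tested with only flagged spots and more without the filter; for the other alternatives the cause was not tested. Dim spots give bounds only.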
